A study of Mus musculus with 2 samples.

Results

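The CD11b-high cells described here were 261 cells of a CITE-seq experiment on mouse fetal liver at embryonic day 13.5, in which transcripts and surface proteins were counted in the same cells. A cell was a member when it had 300 to 5000 detected genes, at most 9% of its unique molecular identifiers (UMIs) from mitochondrial genes, a CD11b antibody count of 100 or more, and fewer than 20 UMIs summed over the complement genes C1qa, C1qb and C1qc. The C1q limit was meant to keep out macrophages. Of the 7863 cells in the data, 7355 passed the gene and mitochondrial limits, and the members were 3.55% of these (95% exact binomial interval 3.14 to 4.00%). A CD11b count of 100 or more was found in 325 cells, and the C1q limit removed 64 of them.

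The sample came from 7 pooled C57BL/6 livers, dissociated and depleted of cells carrying the erythroid surface protein Ter119, after which the study's methods state that as many Ter119-positive as Ter119-negative cells were mixed in again. The share of CD11b-high cells therefore depends on that mixing and is not their share of the liver. All cells came from 1 cDNA library and 1 antibody library, whose counts held all 7863 cell barcodes of the first, and the pooled embryos cannot be separated. There was therefore no replicate and no test between conditions, and every interval given below covers counting error only, at the 95% level. The labels describe the cells as primary erythroid progenitors, whereas the cells described here are a small fraction without an erythroid programme in most of its members. They held 2022191 UMIs, with a median of 6839 per cell (lowest 2523, highest 23900) and a median of 2288 genes.

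CD11b is the alpha chain of the integrin Mac-1, encoded by Itgam and paired at the surface with CD18, encoded by Itgb2. It is carried by neutrophils, monocytes, macrophages and some mast cells and basophils. Neutrophils fill their granules in order during maturation. Promyelocytes make the primary (azurophil) granule proteins such as myeloperoxidase and the serine proteases, and myelocytes and metamyelocytes then make secondary granule proteins such as lactoferrin, cathelicidin and neutrophilic granule protein. In the fetal liver these cells arise beside a much larger erythroid population.

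The surface proteins were read through 12-base barcodes attached to the antibodies. Those of 3 of the antibodies whose counts are reported below are printed.
CD11b: CATGATTGGCTC
cKit: AAGCGCTTGGCA
Ly6G/6C: TGGTGAACCTGG

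The 4 genes most raised in the members over all other kept cells were Ngp, S100a9, Camp and S100a8. They lay in 2 neighbourhoods of the GRCm38.p6 assembly (mm10). Camp (chr9:109847377-109849456), Ngp (chr9:110419808-110423012) and Ltf (chr9:111019292-111042766) followed each other on chromosome 9 with gaps of 570352 and 596280 bases, and S100a8 and S100a9 were 22596 bases apart on chromosome 3. Itgam itself is at chr7:128062640-128118491. RefSeq promoters of this assembly (250 bases before to 50 after each start) were searched on both strands for TTNNGCAA, letters known from binding sites of C/EBP factors, and for GAGGAA, letters known from those of PU.1. TTNNGCAA was in the promoters of 9 of the 16 matched genes among the 20 most raised, against 12.2% of 27025 genes, and in 1 of 6 matched primary granule genes, Ms4a3. GAGGAA was in the promoters of 10 of those 16 genes and of all 6 matched primary granule genes, against 31.3% of the 27025 genes. It was also in 7 of 11 matched genes of the macrophage list. The 20 most raised genes were taken among genes with 50 or more UMIs in the members, whereas the 27025 genes had no such limit. The shares are therefore descriptions only. A match of letters is a description of the promoter and not evidence of binding. The 30-base stretches around the matches in Ngp, Ltf, Lcn2 and S100a9 are shown with TTNNGCAA or its complement in capitals, since genes of secondary granules and calprotectin carry the largest differences below. Fcnb, another secondary granule gene, also had a match and is not shown. Camp and S100a8, also among the 4 most raised genes, had no match.
Ngp, 138 bases before the start, chr9:110419659-110419688, plus strand: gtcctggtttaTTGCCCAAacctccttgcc
Ngp, 11 bases before the start, chr9:110419786-110419815, plus strand: accggcagttcTTGGGCAAggcagtctcaa
Ltf, 75 bases before the start, chr9:111019206-111019235, plus strand: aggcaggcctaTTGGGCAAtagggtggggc
S100a9, 236 bases before the start, chr3:90695939-90695968, minus strand: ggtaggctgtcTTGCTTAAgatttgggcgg
Lcn2, 216 bases before the start, chr2:32387937-32387966, minus strand: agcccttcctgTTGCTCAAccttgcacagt

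The same stretches of 3 primary granule genes are shown with GAGGAA in capitals.
Elane, 85 bases before the start, chr10:79886215-79886244, plus strand: tcgtgtcccaggGAGGAAgtagggctgtgg
Prtn3, 95 bases before the start, chr10:79879560-79879589, plus strand: ccaaactggaagGAGGAAgtgggacccaca
Ctsg, 216 bases before the start, chr14:56102773-56102802, minus strand: ctcccagaaggaGAGGAAgaaaaggaagta

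The label was checked first against its 5 marker genes. Levels are means over cells of UMI counts scaled to a total of 1000000 per cell (CPM), and differences between groups are log2 differences after adding 10 CPM. Itgam stood at 48.9 CPM in the members (37.0 to 64.3), 10.1 in CD11b-low cells with granule transcripts, 19.8 in C1q-high macrophages and 1.19 in all other kept cells. S100a8 and S100a9, which together form calprotectin, stood at 7233 CPM (7077 to 7392) and 7685 CPM (7523 to 7850), against 30.7 and 26.9 in the other kept cells. Ngp stood at 5201 CPM (5064 to 5342) and Camp, the cathelicidin gene, at 4261 CPM (4140 to 4385), against 9.09 and 12.7. These levels describe the members and are no independent support for the label, since the markers and the limits were chosen with earlier results of these cells known.

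The 4 granule and calprotectin transcripts were also present at a low level in cells of the erythroid lineage, where they are not expected to be made. With every cell thinned to 2000 UMIs, an Ngp UMI was found in 18.4% of the members (13.9 to 23.6%) and in 2.67% of 1346 Ter119-high cells. An S100a8 UMI was found in 45.2% of the members and in 7.65% of the Ter119-high cells. Without thinning the Ngp shares were 22.2% and 6.46%, at median depths of 6839 and 4206 UMIs. An Itgam UMI was found in 8.43% of the thinned members (5.36 to 12.5%) and in 0.0743% of the Ter119-high cells.

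The markers were unevenly spread over the members. Ngp UMIs were found in 58 of 261 cells and S100a8 UMIs in 137. Of the members, 214 (82.0%) had no C1q UMI at all and 16 had 5 or more. The members were grouped by Leiden clustering into 10 subclusters, numbered by size, which differ by construction in the genes that lead them. The subcluster values are descriptions and no test was made on them. A subcluster was called after a cell type only where at least 3 markers of that type were among its 10 leading genes.

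Subcluster 3 was neutrophil-like and held most UMIs of 4 of the 5 label markers. Its 33 cells were led by Camp, Ngp, Ltf, Lcn2 and Chil1, and they contained 84.6% of all Ngp UMIs, 84.6% of Camp, 71.2% of S100a9 and 61.7% of S100a8, but 28.4% of Itgam. Ngp reached 35913 CPM (34891 to 36961) and was detected in all 33 cells, and Ltf, which encodes lactoferrin, reached 4413 CPM (4044 to 4810). Cebpe, the C/EBP factor needed for secondary granules, stood at 1493 CPM (1299 to 1713). These cells had the highest CD11b counts, with a median of 1108 (lowest 274, highest 3178), or 61.6% of all antibody counts of the cell. The next highest median was 374. Their Itgam and Itgb2 transcripts were likewise the highest of the 10 subclusters, at 147 CPM (87.4 to 238) and 297 CPM (211 to 412), although both intervals overlapped those of other subclusters. Subcluster 10 had Itgb2 at 288 CPM (122 to 600).

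Subcluster 1, the largest with 44 cells, was led by Prg3, Ctsg, Ms4a3, Mpo and Elane and was primary-granule-like. Mpo, encoding myeloperoxidase, stood at 4783 CPM (4533 to 5049), and Elane and Prtn3, encoding neutrophil elastase and proteinase 3, at 3581 and 4945 CPM. Ngp was 116 CPM and found in 5 of the 44 cells, and no Ltf UMI was found, which allows up to 33.2 CPM. S100a8 was already at 4276 CPM and found in 39 cells. The median CD11b count was 154.5, near the limit for membership, and the median cKit count was 274.5 against 34 in subcluster 3. cKit is the stem cell factor receptor and is lost as myeloid cells mature. Cebpe at 708 CPM (609 to 825) was lower than in subcluster 3.

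Monocyte transcripts were spread over several subclusters. The 19 cells of subcluster 8 were led by F13a1, C1galt1c1, Ly6c2, Klf4 and Irf8 and were monocyte-like. Ly6c2, the Ly6C antigen of inflammatory monocytes, stood at 601 CPM (474 to 762), and Irf8, a factor of the monocyte and dendritic lineages, at 456 CPM (345 to 603). Primary granule transcripts were also present, with Mpo at 1810 CPM (1593 to 2061) and Prtn3 at 2684 CPM (2410 to 2991). The 23 cells of subcluster 6 had only 2 monocyte markers among their leading genes and were left unnamed. Lyz2, encoding lysozyme, stood there at 17131 CPM (16341 to 17956), Lgals3 at 2061 CPM, and the chemokine receptor gene Ccr2 at 495 CPM (373 to 653) in 21 of 23 cells. Ccr2 was not detected in subcluster 3, which allows up to 43.9 CPM.

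The Ly6G/6C antibody binds antigens of both granulocytes and monocytes. Apart from subcluster 9, described below, its median was highest in subcluster 6, at 45 (lowest 2, highest 322), followed by 27 in subcluster 8 and 22 in subcluster 7. It was 12 in subcluster 3 (lowest 0, highest 108), so the ranges overlapped widely. Among the members 267 UMIs of Ly6c2 were counted but only 9 of Ly6g, the gene of the neutrophil antigen, and none of Ly6c1.

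The 7 cells of subcluster 10 were basophil- or mast-like, with Mcpt8 at 1859 CPM and Cpa3, the mast cell carboxypeptidase, at 2320 CPM. Subcluster 7, with 21 cells, was macrophage-like, led by the scavenger receptor gene Marco at 415 CPM and by C1qc at 636 CPM. Its C1q UMIs stayed under the limit, so cells with macrophage transcripts were among the members. Monocyte transcripts were also present. Ccr2 stood there at 540 CPM and Csf1r at 252 CPM, against 185 and 84.7 CPM in subcluster 8. Subcluster 5, with 27 cells led by Ifi203, Mndal, Id3, Lat2 and Ly86, had Ccr2 at 536 CPM, Irf8 at 378 CPM and a median Ly6G/6C count of 3, and was left unnamed.

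Subcluster 4 had the highest median cKit count, 751 (lowest 31, highest 1045), and was left unnamed. Its 10 leading genes included Pf4, Ppbp and Gp1bb, but a single megakaryocyte-rich cell with 23900 UMIs and a CD41 count of 28778 held 790 of the 855 Pf4 UMIs and 633 of the 643 Ppbp UMIs of all members. Without this cell the other 30 cells were led by Mycn, Sox4, Bcl2, Il12a and Gimap1, and Cd34, a progenitor marker, was at 371 CPM in 25 of them. In the same 30 cells S100a8 stood at 11.7 CPM and Ngp at 9.10 CPM, from 2 and 3 UMIs, against 43.5 and 15.1 CPM in the Ter119-high cells. These 2 transcripts were also low in subcluster 5, at 16.7 and 3.93 CPM. In subcluster 7 S100a8 stood at 49.8 CPM and no Ngp UMI was found. Neither had a UMI in subcluster 10, which allows up to 186 CPM, and S100a9 stood there at 167 CPM from 1 cell.

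In subcluster 2 transcripts of 2 lineages occurred together. Its 38 cells were led by globin genes, with the haem synthesis gene Alas2, also among the leading genes, at 539 CPM against 27.7 in the other members, and had median Ter119 and CD71 counts of 100.5 and 962.5. They also carried Ngp at 4160 CPM in 10 cells and S100a8 at 4223 CPM in 17 cells, and their median CD11b count was 260.5. Of the 5 members that Scrublet called doublets, 4 were in this subcluster. Whether the remaining cells were pairs of an erythroid and a myeloid cell was not tested.

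Subcluster 9 went against the label. Its 18 cells were led by Mest, Cdkn1c, Dcn, Sparc, Serpinh1 and Lyve1. Of their 10 leading genes Dcn and Lyve1 were on the endothelial and stromal list, so they were left unnamed. Hepatocyte transcripts summed to 18314 CPM against 305 to 526 CPM in the other subclusters. No Itgam and no Itgb2 UMI was found in these cells, which allows an Itgam level of up to 31.4 CPM. Apart from CD11b itself and the IgG control, the median of every antibody was above that of all members. It was 237 for CD45R, a B cell protein, 149 for the T cell protein CD3e and 260 for CD41, a platelet and megakaryocyte integrin, against medians of 15, 10 and 26 over all members. The nonspecific IgG control was counted in 38.9% of these cells. Their CD11b median of 168.5 made up 5.20% of the antibody counts of a cell, the lowest share of the 10 subclusters, and their median depth of 14113 UMIs was the highest. The part of general antibody uptake in their CD11b count was not tested.

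**Figure D1:**
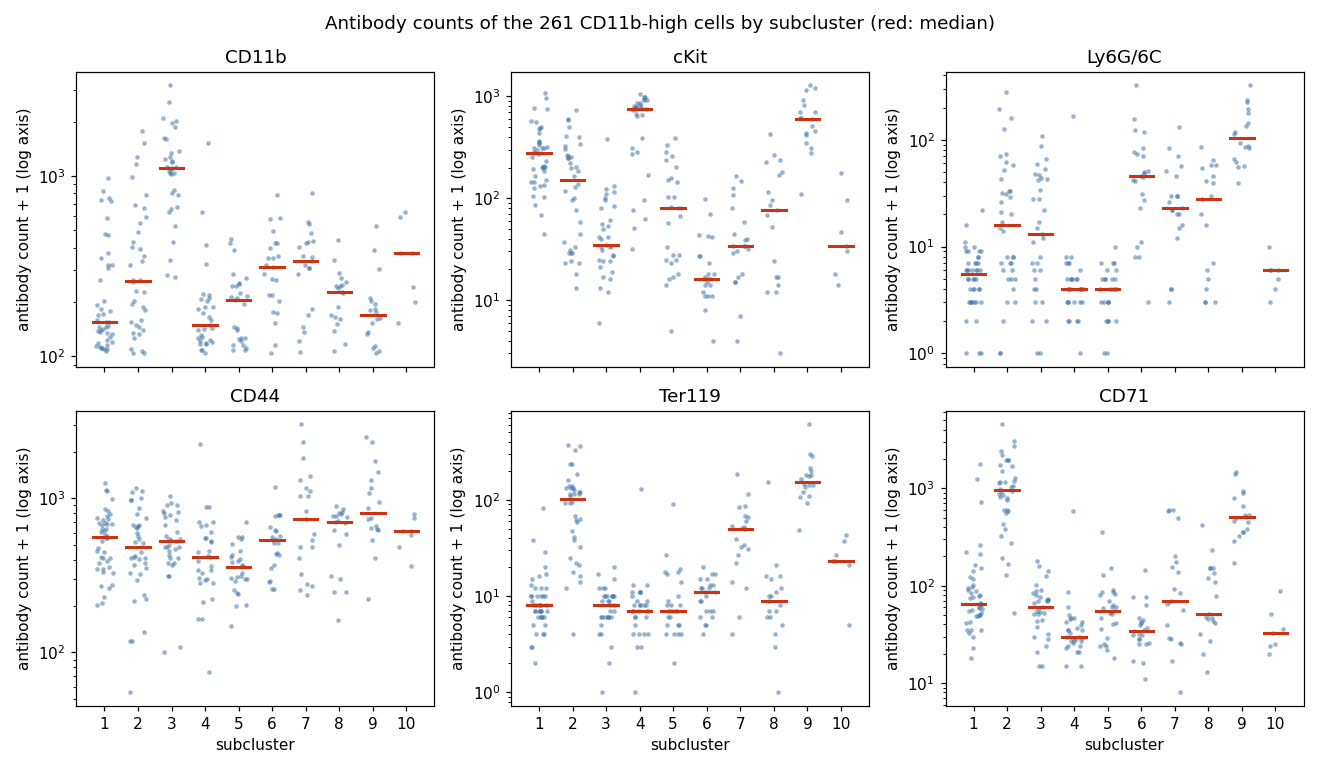
Antibody counts plus 1 (log axis) of the 261 CD11b-high cells for 6 antibodies, by subcluster; each point is a cell and the red line the median. Subcluster 3 has the highest CD11b median (1108), subcluster 4 the highest cKit median (751), and the Ter119 medians of subclusters 9, 2 and 7 (152.5, 100.5 and 49) are the highest.

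**Figure D2:**
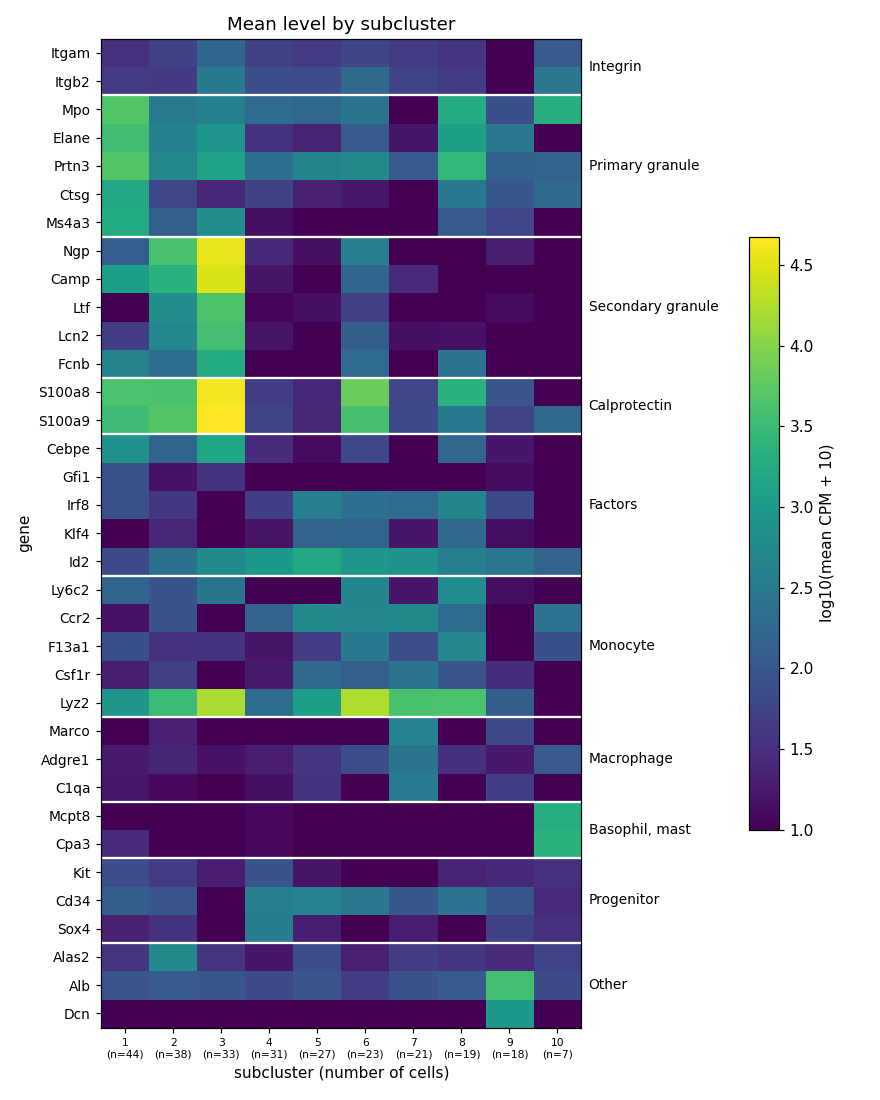
Mean level of marker genes (rows, grouped by role) in the 10 subclusters (columns), as log10 of CPM plus 10. Ngp, Camp, Ltf and Lcn2 peak in subcluster 3, Mpo, Elane, Prtn3 and Ctsg in subcluster 1, and Dcn and Alb are high in subcluster 9.

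Leaving out subclusters 2, 7 and 9, whose leading genes belong to other lineages, left 184 cells, an alternative chosen after the data were seen. The label markers then stood somewhat higher, with Itgam at 56.9 CPM (41.4 to 77.5), S100a8 at 9374 CPM and Ngp at 6518 CPM. The median CD11b count was 222.5 against 225 in all members. These subclusters were picked because Alas2, Marco or Dcn was among their leading genes, so a fall of these genes follows from the choice. Dcn then had no UMI and Alas2 was at 27.8 CPM (18.1 to 42.6) against 102 CPM in all members.

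Which transcripts followed the surface protein was examined by dividing all kept cells by their CD11b count, without the C1q-high cells. Cells with counts of 0 to 9 numbered 5504, and the members fell into 112 cells with counts of 100 to 199, 75 with 200 to 399, 41 with 400 to 799 and 33 with 800 or more. Ngp was at 9.29 CPM in the cells with counts of 0 to 9 and at 5.35 CPM (1.89 to 18.8) in the cells with 100 to 199, so at the lower end of membership it did not exceed the level in the CD11b-negative cells. It was 594 CPM (503 to 697) at 200 to 399, 5519 CPM (5174 to 5885) at 400 to 799 and 32912 CPM (31941 to 33909) at 800 or more.

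S100a8 was raised at lower CD11b counts than Ngp. It stood at 25.5 CPM in the lowest range, 135 CPM (113 to 163) at counts of 50 to 99, 724 CPM (665 to 789) at 100 to 199 and 35248 CPM (34254 to 36269) at 800 or more. Cebpe moved from 178 CPM (148 to 215) at 100 to 199 to 1290 CPM (1114 to 1492) in the top range. Itgam was at 15.04 CPM (6.26 to 33.4), 56.4 CPM (33.4 to 91.9), 79.9 CPM (48.1 to 132) and 108 CPM (59.1 to 189) in the 4 member ranges, and the intervals of neighbouring ranges overlapped, the first and the second barely.

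Mpo took the opposite course among the members. It was highest at counts of 100 to 199, with 1576 CPM (1484 to 1674), and lowest at 800 or more, with 583 CPM (486 to 704). Ccr2 was highest in the middle ranges, at 286 CPM in each, and dropped to 25.2 CPM (6.86 to 78.0) in the top range, where it was found in 1 of 33 cells. The cells just below the limit, with CD11b counts of 80 to 99, had S100a8 at 109 CPM and Mpo at 818 CPM, and those in the first 20 counts from 100 upward had 351 and 1869 CPM. Across the C1q limit, the 8 members with 10 to 19 C1q UMIs had Marco at 561 CPM and Ccr2 at 202 CPM, and the 27 cells with 20 to 39 had 1016 and 9.19 CPM.

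**Figure D3:**
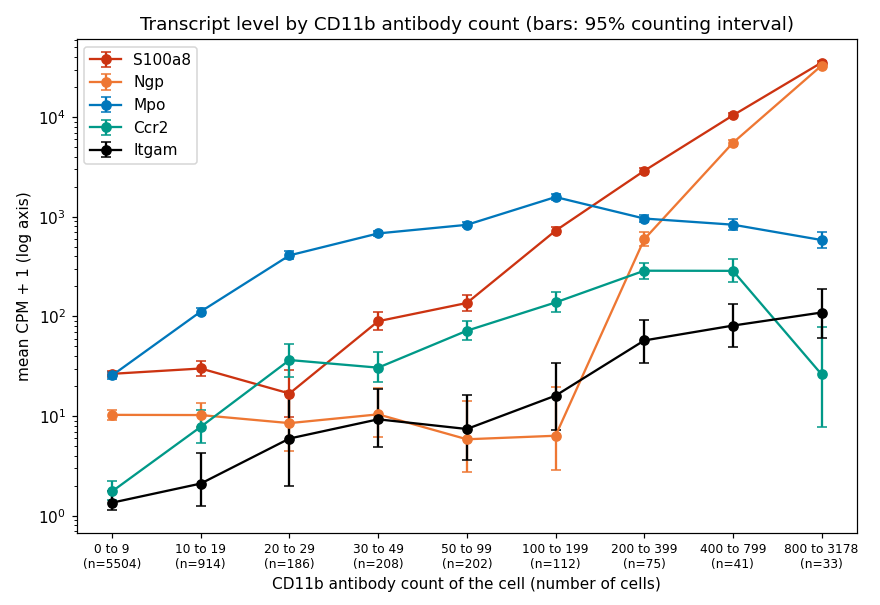
Mean CPM plus 1 (log axis) of 5 transcripts by the CD11b antibody count of the cell; bars are 95% counting intervals and the last 4 ranges are the members. Ngp is at its background level up to a count of 199 and reaches 32912 CPM in the top range, whereas Mpo is highest at 100 to 199.

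The members were also ranked by CD11b count into 4 groups of 66, 65, 65 and 65 cells, with CD11b counts of 103 to 142, 144 to 225, 226 to 429 and 432 to 3178. These groups differed in their subclusters. The top group held 29 cells of subcluster 3 and 2 of subcluster 4, and the bottom group held 0 and 15, so the ratios below compare different mixtures of cells. The ratio of the top to the bottom group was 5.48 for Itgam (2.09 to 18.3), 5.82 for Itgb2 (3.07 to 11.9995), 43.3 for S100a8 (37.9 to 49.6) and 4.03 for Cebpe (3.18 to 5.15). It was below 1 for other genes, with 0.490 for Mpo (0.430 to 0.557), 0.189 for Ctsg (0.139 to 0.252) and 0.190 for Cd34 (0.121 to 0.290). The primary granule genes Elane and Prtn3 differed less, with 0.809 (0.695 to 0.941) and 0.826 (0.737 to 0.925), and the interval of Myb, 0.660 (0.407 to 1.06), included 1. Kit stood at 81.2 CPM in the bottom group and 2.78 CPM in the top one, with 34.4% and 32.8% of its UMIs over all members in subclusters 1 and 4, and the median cKit antibody count was 296.5 in the bottom group and 39 in the top one. The median depth was 8084 UMIs in the bottom and 5749 in the top group, and its part in these values was not tested. Across the 261 cells, Spearman's rho of the CD11b count was 0.57 with Ngp, 0.32 with Itgam and -0.48 with the cKit count. It was 0.29 with the nonspecific IgG control and 0.29 with Ly6G/6C, close to the coefficient with Itgam. These cells share 1 library and CD11b and cKit share the depth of the antibody counts, so the coefficients are descriptions only.

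Within single cells the 2 granule programmes overlapped in part. The primary sum was taken over Mpo, Elane, Prtn3 and Ctsg. The secondary sum was taken over Ngp, Camp, Ltf and Lcn2 alone and left out the other genes of the secondary granule list, such as Lyz2 and Cybb. A primary sum of 1000 CPM or more was found in 111 members (42.5%, interval 36.5 to 48.8%), and a secondary sum of that size in 53 (20.3%, 15.6 to 25.7%). Among the 7094 other kept cells the primary sum was reached by 348 (4.91%), including all 153 of the CD11b-low granule-gene cells described below, and the secondary sum by 2. Both sums were reached by 26 members, with a median CD11b count of 792, the primary sum alone by 85 with a median of 168, and the secondary sum alone by 27 with a median of 1113. The median cKit count was 200 in the cells with the primary sum alone, 101 in those with both and 27 in those with the secondary sum alone. Neither of these sums was reached by 123 cells, 47.1% of the members, in which the median CD11b count was 203.

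**Figure D4:**
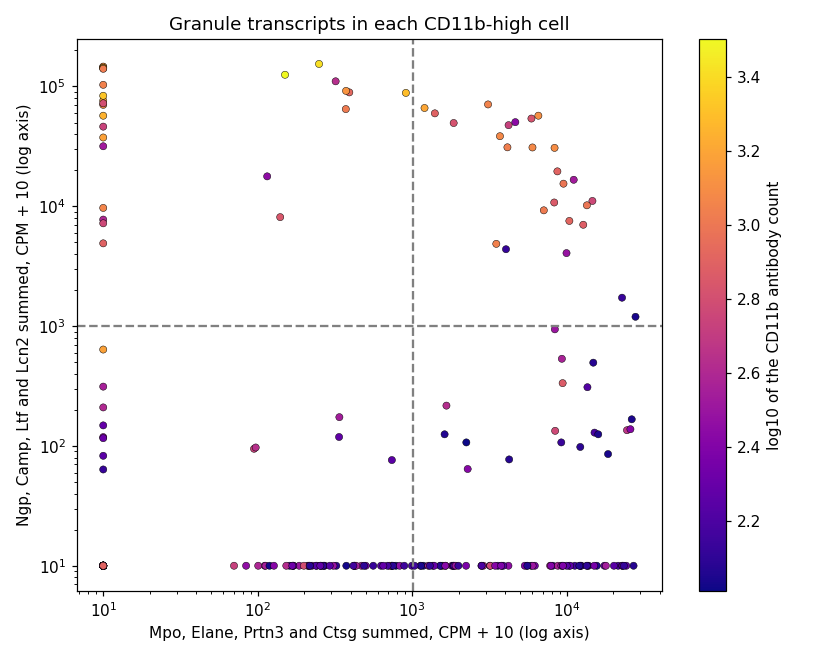
Sum of Mpo, Elane, Prtn3 and Ctsg against the sum of Ngp, Camp, Ltf and Lcn2 in each of the 261 CD11b-high cells, in CPM plus 10 on log axes, coloured by log10 of the CD11b antibody count; dashed lines mark 1000 CPM. The 26 cells with both programmes lie at the upper right, and the highest CD11b counts are in cells with Ngp, Camp, Ltf or Lcn2 transcripts.

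The members were then compared with all 7094 other kept cells. Of 11276 genes with at least 50 UMIs in both groups together, 9.26% were at least 2-fold higher in the members and 2.74% at least 2-fold lower, so that 1044 and 309 genes passed this limit of size. It is a limit on size and not a test. Of the 12 secondary granule genes 10 could be compared and 10 were higher, with a median log2 difference of 5.37 against 0.12 over all genes compared. All 6 primary granule genes compared, of 8 in the list, were higher (median 3.80), as were 11 of 12 monocyte genes (2.44) and all 6 genes of the NADPH oxidase (2.86), the enzyme complex that makes superoxide in phagocytes. Of the genes compared, 2 secondary granule genes, 1 monocyte gene and, below, 2 receptor genes reached 50 UMIs only with those of the members, so their place among the higher genes was largely fixed by this minimum. Its subunit genes Cybb and Ncf1 stood at 207 CPM (181 to 235) and 96.5 CPM (80.4 to 116), against 5.11 and 3.82 CPM in the other cells.

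Among receptors of growth factors and chemokines 10 of 14 were higher, against 9.26% of all genes compared, with a median of 1.57. C5ar1, the receptor of complement C5a, stood at 39.4 CPM (28.7 to 53.7) against 1.71. Ccr1, a receptor of inflammatory chemokines, stood at 69.8 CPM (56.1 to 87.0) against 1.15. Ccr1 and Cxcr2, both counted among the 10, reached the minimum of UMIs only with those of the members. The place of these genes among the higher ones was therefore largely fixed by that minimum, and their levels are descriptions only. Among 14 transcription factors 11 were higher, with Spi1, encoding PU.1, at 424 CPM (391 to 461) against 36.2 and Cebpb at 711 CPM (668 to 756) against 62.4. Of the 11, Runx1 and Zeb2 were just past 2-fold, with log2 differences of 1.02 each, and dropped below it under several other settings. Of 11 Fc and pattern recognition receptor genes 9 were higher, with the adaptor Tyrobp at 934 CPM (883 to 988) against 55.8. Of the 9, Myd88 dropped below 2-fold with a CD11b limit of 50 and with pooled CPM. Against the C1q-high cells described below, 2 of 10 genes of this list were higher in the members and 4 lower. Over all 5881 genes of that comparison 7.52% were higher and 6.97% lower.

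Other genes were also among the 20 with the largest rise. Stfa1, BC100530, Gm5483 and Stfa3 belong to the stefin A cluster of protease inhibitors on chromosome 16, whose near-identical copies make the values of single members uncertain. Anxa1, encoding the anti-inflammatory protein annexin A1, stood at 907 CPM (853 to 964) against 7.39. Pglyrp1, encoding a peptidoglycan recognition protein, stood at 277 CPM (248 to 310) against 1.36.

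The genes with the largest falls included those of red cells. All 12 erythroid genes compared were at least 2-fold lower, against 2.74% of all genes compared, with a median of -2.41. Klf1, the erythroid Krüppel-like factor, stood at 64.1 CPM (53.3 to 77.7) against 484, and Alas2, the first enzyme of haem synthesis in red cells, at 102 CPM (86.4 to 121) against 725. Of 12 proliferation genes, Rrm2 was lower and none higher, against 2.74% lower and 9.26% higher over all genes compared. Rrm2 was no longer 2-fold lower with a CD11b limit of 200. Of 9 endothelial and stromal genes 6 were higher, against 9.26% of all genes compared. The summed level of this list, 3322 CPM in subcluster 9, compares with at most 198 CPM in any other subcluster. The erythroid falls depend on the cells compared. Globin genes made up 11.9% of the UMIs of the other kept cells and 3.04% of those of the members. Against the CD11b-low granule-gene cells described below, the erythroid sum was higher in the members, at 1822 against 656 CPM.

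Cells with primary granule transcripts also occurred below the CD11b limit. These CD11b-low granule-gene cells were 153 cells with at least 20 UMIs of Mpo, Elane, Prtn3 and Ctsg, so their levels of these 4 genes are fixed by the choice. They had a median CD11b count of 41 and a median cKit count of 334, against 225 and 107 in the members. Against them, 5.09% of 6583 genes were at least 2-fold higher in the members and 0.805% lower. Secondary granule genes summed to 16834 CPM in the members and 837 CPM in the CD11b-low cells. Ngp was at 8.39 CPM (3.82 to 19.6) in the CD11b-low cells, near the level in erythroid cells, and Lyz2 was at 447 CPM (409 to 490) against 4959 CPM in the members. Itgam was 4.83 times higher in the members (2.37 to 11.1) and Itgb2 7.63 times (4.46 to 14.0). Both genes reached 50 UMIs only with those of the members, which were chosen by CD11b, so these ratios are descriptions only. The C/EBP factor gene Cebpe differed by less, at 197 CPM against 348, a ratio of 1.77 (1.49 to 2.096), and Spi1 stood at 351 against 424 CPM. Kit and Myb, genes of progenitors, were lower in the members, with Kit at 79.3 against 29.6 CPM and Myb at 223 against 81.8 CPM. Genes of other lineages also had higher sums in the members, with 634 against 36.1 CPM for macrophage genes, 1659 against 291 for hepatocyte, 268 against 39.9 for endothelial and stromal, 370 against 45.3 for megakaryocyte and 1822 against 656 for erythroid genes. Most of these genes reached the minimum of 50 UMIs only with those of the members, so no count of them is given. Among the subclusters the macrophage sum was highest in subcluster 7, the hepatocyte and the endothelial and stromal sums in subcluster 9, the erythroid sum in subcluster 2, and the megakaryocyte sum in subcluster 4 with its single megakaryocyte-rich cell.

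The 80 C1q-high cells lay on the other side of the C1q limit, which fixes their C1q levels. Against them 7.52% of 5881 genes were at least 2-fold higher in the members and 6.97% lower. Their CD11b counts overlapped with those of the members, with a median of 203 (lowest 33, highest 1726), and their CD44 counts were higher, with a median of 1395.5 against 531. Csf1r, the receptor that macrophages depend on, stood at 468 CPM there and at 64.3 CPM (52.3 to 79.4) in the members. Ccr2 went the other way, at 5.61 CPM against 189 CPM (167 to 214). Lyz2 was 1.84 times higher in the members (1.73 to 1.97), and the oxidase gene Cybb had a ratio of 1.03 (0.811 to 1.31). Ngp and Camp in the C1q-high cells, at 7.38 and 2.23 CPM, were no higher than in the erythroid cells.

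**Figure D5:**
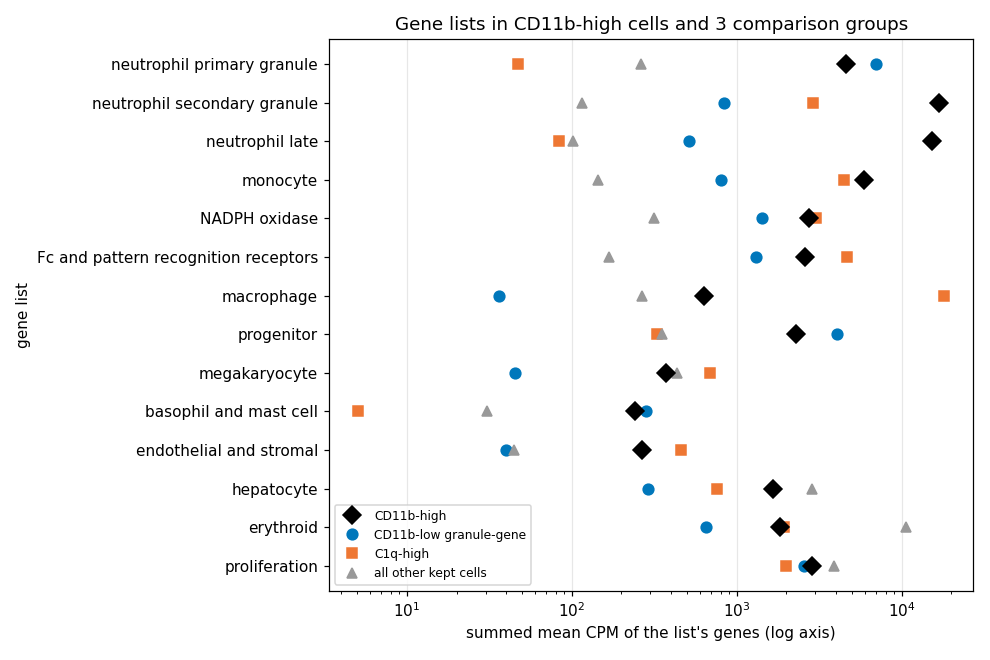
Summed mean CPM (log axis) of the genes of 14 lists in the CD11b-high cells (diamonds), the CD11b-low granule-gene cells, the C1q-high cells and all other kept cells. Secondary granule genes sum to 16834 CPM in the CD11b-high cells and 837 CPM in the CD11b-low cells, whereas primary granule genes sum to 4602 and 7032 CPM, the latter fixed in large part by how the CD11b-low cells were chosen.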

How the data were processed

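The authors mapped the reads of 1 10x 3′ cDNA library to mm10 with Cell Ranger and deposited the unscaled UMI counts of every gene in each cell; antibody reads were deposited as raw counts. Collapsing of antibody reads by molecular identifier is not given in the sources used here. Members and gene lists were chosen with earlier results of these data known. Here, cells were scaled to CPM, and group levels are means over cells with gamma intervals. Ratios have exact binomial intervals and shares exact Clopper-Pearson intervals. Shares of cells with a UMI of a gene were taken after thinning to 2000 UMIs unless stated otherwise, and no cell was shallower. A gene counted as 2-fold different when the log2 difference of mean CPM plus 10 was at least 1, among genes with 50 or more UMIs over both groups. The largest rises and falls were ranked among genes with 50 or more UMIs in the members alone. Ter119-high cells had a Ter119 count of 100 or more and a CD11b count below 10. Subclusters were made with scanpy 1.11.5 (1000 variable genes without mitochondrial, globin and C1q genes, 10 components, 15 neighbours, Leiden resolution 0.8). A lead by 1 cell gave no name. Scrublet (expected rate 6%) called 128 of 7863 cells (1.63%), 5 of them members, which were kept. Named were list genes, antibody targets, the 20 largest rises and 10 largest falls, and the 10 leading genes of each subcluster; of the lists, Azu2, Ighm, Cebpd and Clec7a were not measured. A further gene that this rule names is not reported here. On simulated data for the comparison with the other kept cells (11276 genes), 99 of 100 genes changed 2.5-fold and 99 of 100 changed 5-fold had the right direction, and 33 and 64 passed the 2-fold limit. Promoters are RefSeq's. The genome sequence given was of another build and was not used.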

Additional observations from a re-analysis of the deposited data

How the results depend on the processing

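No paired analysis was possible because there is 1 library and no replicate. The number of members was 463 and 149 with CD11b limits of 50 and 200, and 125 with a mitochondrial limit of 5%, which left 47.9% of the members but 70.1% of all kept cells. Clustering gave 8 subclusters at Leiden resolution 0.4 (largest 63 cells) and 12 at resolution 1.2 (largest 42). With 16 components it gave 9 (largest 43). A pseudocount of 1 CPM gave 2232 higher and 760 lower genes, and one of 50 CPM gave 295 and 118. Leaving out subclusters 2, 7 and 9 gave 474 lower genes. Without thinning, 52.5% of members had an S100a8 UMI and 22.2% an Itgam UMI, and without those subclusters 56.0% had an S100a8 UMI. The median CD11b count of subcluster 3 was 5.499 times that of the other members, and 3.56 times as a share of antibody counts. Without those subclusters the log2 difference from other kept cells turned negative for Mrc1 (-0.36), Slc40a1 (-0.82), Hmox1 (-1.19), Cdh5 (-0.27), Stab2 (-0.21), Lyve1 (-0.65), Kdr (-0.34), Col3a1 (-0.57) and Dcn (-0.78), and with a C1q limit of 5 for Slc40a1 (-0.30), since the cells that carried these genes were removed. No other gene among the 117 named as 2-fold different changed direction under the settings on the CD11b limit, C1q, doublets, those subclusters and scaling. Under each of these settings 106 to 117 of the genes stayed past 2-fold in the same direction. The mitochondrial limit of 5% was not among these settings. The log2 difference of Runx1 fell below 1, the 2-fold limit, with a CD11b limit of 200 (0.95), pooled CPM (0.85) and globin genes left out of the denominator (0.93), and that of Zeb2 with that limit (0.98), without globin genes (0.92), with a C1q limit of 5 (0.93) and without those subclusters (0.90). Calls were also lost for Rrm2 with a CD11b limit of 200 (-0.97), for Myd88 with a limit of 50 (0.90) and pooled CPM (0.94), and for H2-K1 with pooled CPM (0.95). Intervals cover counting error in 1 library, and adding 10 CPM understates the differences of low genes.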

Other observations

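Eosinophil, lymphoid and dendritic cell genes summed to 159, 163 and 49.0 CPM in the CD11b-high cells, against 7.61, 28.0 and 13.9 CPM in the other kept cells. Of the eosinophil genes 3 of 4 compared were at least 2-fold higher, Prg2, Prg3 and Siglecf, against 9.26% of all genes compared, and Epx, Ear6 and Il5ra had no UMI. Prg3 stood in subcluster 1 at 484 CPM against 1.32 CPM in the other members, from 128 UMIs in 7 of its 44 cells. None of 3 dendritic cell genes compared was 2-fold higher, and Siglech and Xcr1 were at 0. Of the lymphoid genes Vpreb1, Igll1, Cd3e, Cd3g and Klrb1c were at 0, whereas 2 of 5 compared, Nkg7 and Cd79b, were at least 2-fold higher. Nkg7 was at 413 CPM in subcluster 1 and 741 CPM in subcluster 10, and Cd79b at 157 CPM in subcluster 5. The cytokine genes Il1b and Cxcl2 were also at 0, whereas the chemokine gene Ccl6 stood at 60.3 CPM (46.8 to 77.4) against 4.04 CPM in the other kept cells. Without subclusters 2, 7 and 9 Ccl6 stood at 39.5 CPM (27.2 to 56.8). It was at least 2-fold lower in the members than in the C1q-high cells. Of 6 antigen presentation genes compared with the other kept cells 4 were higher, with B2m at 882 CPM (837 to 931) against 226 CPM. Of the 4, H2-K1 dropped below 2-fold with pooled CPM. The list summed to 1418 CPM in the members, 1082 CPM in the CD11b-low granule-gene cells and 2248 CPM in the C1q-high cells. Cd74, of the class II pathway, was at 108 CPM (56.1 to 196) in subcluster 5 and 85.5 CPM (42.0 to 176) in subcluster 7, and had no UMI in subclusters 1, 2, 3, 8, 9 and 10.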
